A study of Homo sapiens with 32 samples.

Results

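JUNB-edited (mut) and wild type (WT) clones of MCF10A, an immortalised line of human mammary epithelium that does not form tumours, were compared by RNA sequencing (RNA-seq) after 72 h of TGFβ1. Of the 32 libraries of the series, the 8 of this comparison were taken by the genotype, clone, replication and time in the names of their count columns. The 8 libraries are named by clone and replication: WT 27-1, 27-2, 2-1 and 2-2, and mut 1-1, 1-2, 65-1 and 65-2. Both genotypes received TGFβ1 at 5 ng/ml for 72 h, and 8 further libraries of the same 4 clones, which received the solvent (BSA in PBS), serve as the background. The remaining libraries are of the same clones after 6 h and 24 h of TGFβ1 at 5 ng/ml, 8 at each time. They entered the same statistical model. The labels give the solvent libraries the time point 0, while the study's setup has them in solvent for the same 72 h, and the labels call the edited clones JUNB knock-out, whereas the study describes extended deletions in JUNB that left a small polypeptide at low level. Each clone descends from a single sorted cell, so that a genotype rests on 2 clones, and p-values measure the spread between libraries of those clones.

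JUNB is a subunit of activator protein 1 (AP-1), a dimer of JUN, FOS, ATF and MAF family proteins that recognises DNA such as TGANTCA. TGFβ1 binds receptor kinases that phosphorylate SMAD proteins, and AP-1 and SMAD proteins meet at many of the same target genes. In mammary epithelial cells TGFβ1 induces epithelial-mesenchymal transition (EMT), in which cells remodel their junctions and actin, secrete and cut matrix, and become motile.

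The 8 libraries at 72 h held between 42131447 and 54438689 counts. Levels are given in CPM, the counts of a gene scaled to all counts of its library, and 3 counts correspond to between 0.0551 and 0.0712 CPM. The 10 most abundant genes took 7.79% to 9.43% of the counts in WT and 5.05% to 5.89% in mut. In a principal component analysis of the 8 libraries, PC1 held 43.0% of the variance, with the WT libraries between -52.9 and -39.7 and the mut libraries between 38.4 and 56.0. PC2 held 15.9% and set WT 27-2 apart, at 64.5 against -37.3 to 5.08 in the other 7 libraries. All 12 epithelial markers of the marker list were measured, with a summed level of 17235 to 22931 CPM in WT and 18796 to 24302 CPM in mut. The leukocyte markers summed to 35.8 to 48.9 CPM over all 8 libraries, and the endothelial markers to 4.17 to 4.80 CPM in WT and 16.2 to 23.1 CPM in mut, mostly from KDR. The defining markers PECAM1, CDH5, ERG and LUM were not among the 17788 genes with counts, and a part of other cell types in the results was not tested. Each library is a bulk culture of an MCF10A clone, so a change in every cell and a change in some of the cells cannot be told apart. Among the called genes named here, ACTA2, ADAM19, BGN, CADM3, CAMK2B, CDK4, COL18A1, CTNNA1, CTNNB1, EMC10, ETV4, FOXC2, GCLC, IFIT3, ITGA5, ITGB4, ITGB8, KRT80, LY6K, MYC, NFE2L2, P3H2, P4HA2, PLAU, PPL, SLC7A11, SMURF1, SREBF1, TGM2, TIMP1, TIMP3, TNC, TNFAIP3, UNC5B and ZEB1 overlap another gene on the opposite strand, and the library kit keeps no strand.

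JUNB transcripts remained in both edited clones at 72 h. JUNB (chromosome 19, 12791486 to 12793315, plus strand, GRCh38) stood at 165, 163, 173 and 175 CPM in the WT libraries and at 122, 234, 228 and 359 CPM in the mut libraries. The WT libraries lay close together, and the mut libraries spread from below the lowest to above the highest of them. The log2 difference of mut minus WT was 0.38 ± 0.32 (SE; adjusted p = 0.370, limma-voom), and a two-sided exact permutation test of log2 CPM gave p = 0.343, where 0.0286 is the smallest p that 4 against 4 libraries allow. Without clone mut 1 the difference was 0.76 and was called, and without clone mut 65 it was 0.0037 and was not. A count over the whole gene does not show a deletion inside it, so the level checks neither the labels nor the editing. The gene HOOK2 overlaps JUNB on the opposite strand, so reads of the shared stretch cannot be told apart. In solvent JUNB was at 69.2 and 77.5 CPM in clone 1, below all WT libraries (89.7 to 117 CPM), and at 128 and 172 CPM in clone 65, above them. At 6 h it was at 202 and 129 CPM in clone 1, beside 187 to 276 CPM in WT, and at 436 and 494 CPM in clone 65.

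**Figure D1:**
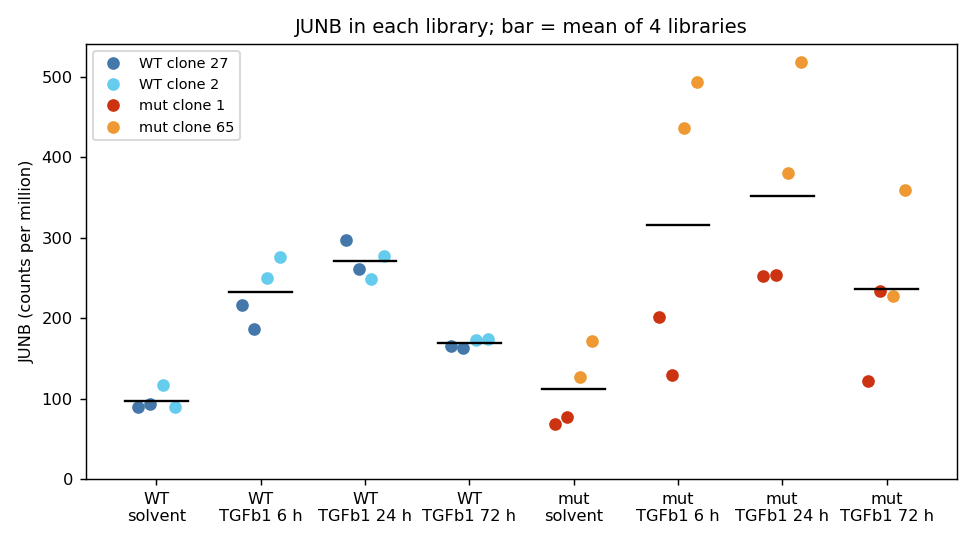
JUNB in each of the 32 libraries, in CPM, by genotype and treatment. Points are libraries coloured by clone and bars are means of 4 libraries. At 72 h the WT libraries lie between 163 and 175 CPM and the mut libraries between 122 and 359 CPM.

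The genes next to JUNB differed between the edited clones. PRDX2, a peroxiredoxin gene that follows JUNB on chromosome 19 (12796820 to 12801800, minus strand), stood at 114, 129, 119.7 and 127 CPM in the WT libraries and at 68.6, 66.1, 144 and 147 CPM in the mut libraries. Both libraries of clone 1 lay below every WT library, and both of clone 65 above. HOOK2, which encodes a microtubule linker, stood at 15.95, 15.3, 17.5 and 14.9 CPM in WT and at 13.7, 12.4, 26.5 and 26.7 CPM in mut, in the same order of clones. RNASEH2A (12806584 to 12813640, plus strand), the catalytic subunit of ribonuclease H2, showed 30.3, 26.6, 26.5 and 20.2 CPM in WT and 18.8, 17.3, 31.1 and 33.4 CPM in mut. The annotated span of HOOK2 (12763003 to 12872740, minus strand) holds JUNB, PRDX2 and RNASEH2A. Reads of shared stretches cannot be told apart. In a limma-voom fit with a group for each clone and treatment, clone 65 exceeded clone 1 by 1.11 ± 0.10 for PRDX2 (adjusted p = 1.33e-06), 1.03 ± 0.13 for HOOK2 (adjusted p = 1.07e-04) and 0.84 ± 0.18 for RNASEH2A (adjusted p = 0.0486) on the log2 scale. These were 3 of the 22 other genes with at least 10 CPM within 500 kb of JUNB, of which 19 were higher in clone 65 than in clone 1. Over all genes that fit called 43 of 15206 between the mut clones (0.283%) and 71 between the WT clones (0.467%). For none of the 22 neighbours did the mean of a WT clone at 72 h deviate by more than 0.15 from the mean of the 4 WT libraries on the log2 scale. That mean includes both WT clones, so the deviation is smaller than the difference between them. It is not the same measure as clone 65 minus clone 1. In solvent, clone 1 again lay below WT for PRDX2 (by -0.98 in log2 CPM), RNASEH2A (-0.79) and HOOK2 (-0.57), and clone 65 stood at -0.10, 0.03 and 0.20. The look at the neighbours was chosen after the values were seen, and its relation to the deletions was not tested.

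**Figure D2:**
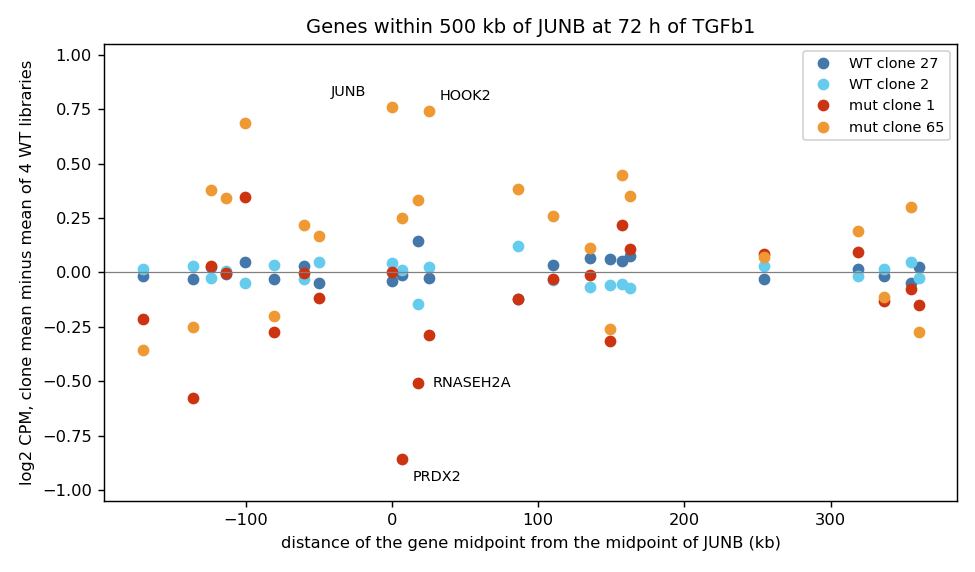
Genes with at least 10 CPM within 500 kb of JUNB at 72 h, placed by the distance of their midpoint from that of JUNB in kb. The vertical axis is the mean log2 CPM of a clone minus the mean of the 4 WT libraries. PRDX2 and RNASEH2A in mut clone 1 lie at -0.86 and -0.51, and HOOK2 in mut clone 65 lies at 0.74. The WT clones, whose own mean sets 0, stay within 0.15 of it.

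At 72 h a large share of the transcriptome differed between mut and WT cells. Of 14865 genes tested, 5829 (39.2%) were called in mut versus WT at an adjusted p below 0.05, with 3864 higher (26.0%) and 1965 lower (13.2%) in mut. The median log2 difference over all genes was 0.10, and with TMM factors, which correct for library composition, it was 0.01 and the calls split into 2776 higher and 2653 lower. With an absolute log2 difference of at least 1, 567 genes were higher and 467 lower. The 4 mut and the 4 WT libraries did not overlap for 33.9% of all genes tested and for 78.7% of the called genes. In solvent 1887 genes (12.7%) were called in the same clones, with 948 higher and 939 lower. Of these, 1208 were called in the same direction at 72 h, which is 64.0% of the solvent calls and 20.7% of the 72 h calls. These are other libraries of the same clones in the same fit.

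The deepest falls in mut cells included the metalloproteases ADAMTS6, ADAM19 and MMP9 and the secreted proteins IL32 and STC1. By the rule of the 10 lowest log2 differences among called genes with at least 10 CPM and no overlap of libraries, of which 9 are named here, these were MYH15, ADAMTS6, ADAM19, HS3ST3A1, IL32, STC1, MMP9, MARCKSL1 and GRAMD1B. ADAM19, a membrane-bound metalloprotease (chromosome 5, 157395534 to 157575775, minus strand), stood at 490.4, 589, 591 and 678 CPM in WT and 50.4, 57.97, 59.6 and 54.1 CPM in mut (log2 difference -3.397 ± 0.39, adjusted p = 1.05e-07). The mut libraries lay close together, far below the lowest WT library. HS3ST3A1, a heparan sulfate sulfotransferase, stood at 21.03, 24.9, 21.9 and 24.7 CPM in WT and 3.73, 2.13, 1.83 and 1.68 CPM in mut (log2 difference -3.34 ± 0.35, adjusted p = 2.47e-08). Its mut libraries were all below 4 CPM and its WT libraries all above 20 CPM. STC1, the secreted glycoprotein stanniocalcin, showed 24.5, 13.5, 15.6 and 19.2 CPM in WT and 1.91, 1.43, 3.01 and 1.8999 CPM in mut (log2 difference -3.17 ± 0.37, adjusted p = 1.24e-07). MARCKSL1, an actin-binding membrane protein, showed 51.6, 53.3, 50.5 and 51.6 CPM in WT and 6.49, 3.55, 15.3 and 8.002 CPM in mut (log2 difference -2.88 ± 0.32, adjusted p = 7.84e-08). GRAMD1B, a cholesterol transporter between membranes, showed 41.9, 28.1, 45.4 and 55.9 CPM in WT and 7.98, 11.8, 5.34 and 3.13 CPM in mut (log2 difference -2.66 ± 0.29, adjusted p = 4.26e-08). For these 3 genes clone 1 and clone 65 both lay under all WT libraries, as the rule requires. MYH15, a myosin heavy chain gene, differed by -3.58 ± 0.50 (adjusted p = 2.07e-06). In solvent 8 of these 9 genes were called lower in mut as well, the exception being IL32.

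The 10 genes most raised in mut cells were low in TGFβ1-treated WT cells, where the highest library lay between 0.793 CPM for RIPOR2 and 16.2 CPM for CADM3. They were taken by the same rule for the highest differences, a ranking that favours genes low in WT. The genes were RIPOR2, IGFBP2, STAC2, BGN, CADM3, SCNN1B, SUSD2, ALDH3A1, SYT12 and CAMK2B. RIPOR2, an inhibitor of the GTPase RHOA, stood at 0.439, 0.728, 0.793 and 0.457 CPM in WT and 35.8, 25.1, 43.2 and 31.7 CPM in mut (log2 difference 5.79 ± 0.73, adjusted p = 4.45e-07). IGFBP2, a secreted binding protein of insulin-like growth factors, stood at 4.59, 7.93, 4.41 and 2.97 CPM in WT and 108, 107, 157 and 202 CPM in mut (log2 difference 4.86 ± 0.38, adjusted p = 1.93e-10). That no WT library reached the mut range in either gene is required by the rule. BGN, the small leucine-rich proteoglycan biglycan, stood at 0.352, 1.56, 1.33 and 3.73 CPM in WT and 26.9, 21.6, 23.3 and 24.9 CPM in mut (log2 difference 4.22 ± 0.59, adjusted p = 2.52e-06). SCNN1B, a subunit of the epithelial sodium channel, stood at 2.72, 1.56, 2.401 and 1.44 CPM in WT and 35.2, 22.01, 33.4 and 32.8 CPM in mut (log2 difference 3.95 ± 0.74, adjusted p = 1.14e-04). SUSD2, a type I membrane protein, stood at 6.06, 6.41, 2.87 and 1.78 CPM in WT and 55.03, 47.3, 57.2 and 53.9 CPM in mut (log2 difference 3.79 ± 0.59, adjusted p = 1.15e-05). In each the lowest mut library lay above the highest WT library, as the rule requires. STAC2 differed by 4.46 ± 0.47 and SYT12, a synaptotagmin, by 3.54 ± 0.49. In solvent 9 of these 10 genes were called higher in mut, the exception being ALDH3A1 (adjusted p = 0.413).

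**Figure D3:**
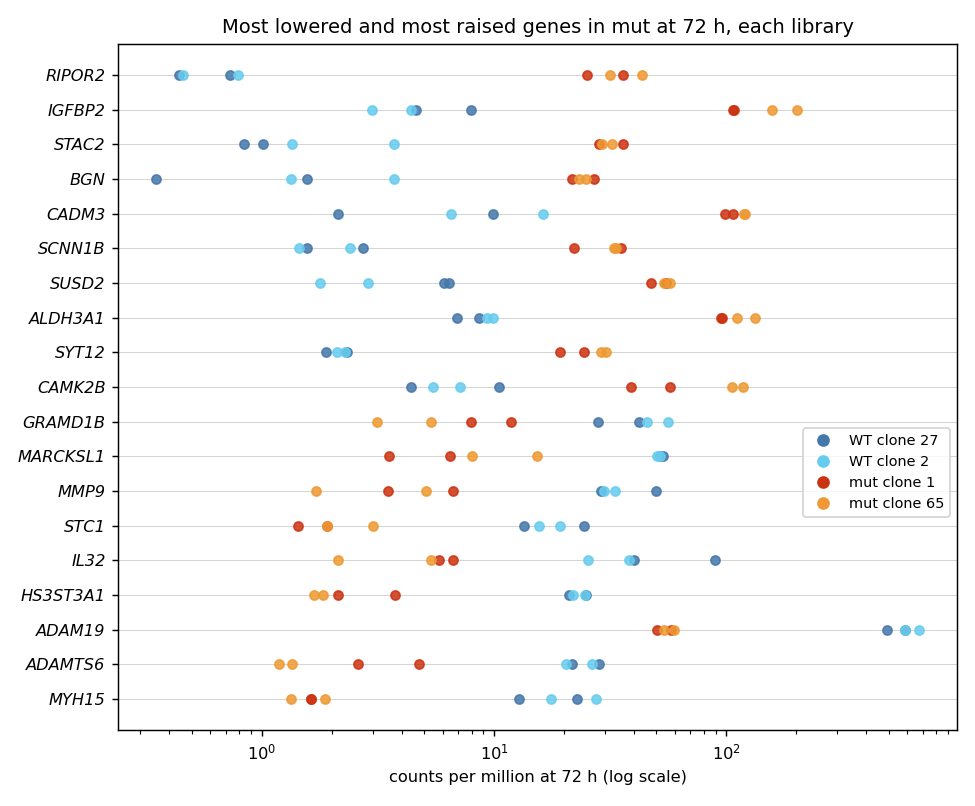
CPM at 72 h, on a log scale, of the 9 most lowered genes named here and the 10 most raised genes in mut cells that met the rule. Each point is a library, coloured by clone. In every gene shown the 4 mut libraries lie on one side of the 4 WT libraries, as the rule requires.

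Matrix proteases and their inhibitors were lower in mut cells as a group. Of 26 list members tested, 17 were lower and 3 higher, with a median log2 difference of -0.96 against 0.10 over all genes, where 13.2% of genes were lower and 26.0% higher. MMP9, a gelatinase, stood at 49.97, 28.98, 29.7 and 33.1 CPM in WT and 3.48, 6.69, 1.71 and 5.07 CPM in mut (log2 difference -3.15 ± 0.36, adjusted p = 8.91e-08). ADAMTS6, a secreted metalloprotease, stood at 21.7, 28.3, 20.4 and 26.5 CPM in WT and 2.59, 4.74, 1.35 and 1.18 CPM in mut (log2 difference -3.44 ± 0.42, adjusted p = 2.68e-07). Mut libraries did not reach the WT range for either protease, as the rule of the lowest genes requires. The urokinase system, which turns plasminogen into plasmin, was lower in its receptor and its protease. PLAUR, the urokinase receptor, stood at 88.3, 51.9, 57.99 and 55.4 CPM in WT and 22.1, 24.7, 17.6 and 21.5 CPM in mut (log2 difference -1.53 ± 0.17, adjusted p = 7.71e-08), and the protease PLAU fell from 1021 to 476 CPM in the mean (adjusted p = 5.09e-04). MMP14, a membrane-anchored collagenase, had means of 616 and 329 CPM in WT and mut (adjusted p = 1.13e-07). The members that were higher were PLAT, the tissue plasminogen activator, and the inhibitors TIMP1 and TIMP3. The inhibitors TIMP2 and SERPINE2 were lower, with log2 differences of -0.93 and -0.99, and kept their calls in all 22 alternatives. PLAT stood at 78.4, 60.3, 115 and 108 CPM in WT and 202, 214, 234 and 234 CPM in mut (log2 difference 1.34 ± 0.20, adjusted p = 6.86e-06) and TIMP1 had means of 2213 and 3994 CPM (adjusted p = 0.00797), the latter with overlapping libraries and a call lost without clone WT 27 or mut 65 and with counts summed per clone. MMP1 and MMP10 were below 2 CPM in every group mean at 72 h.

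The alpha and beta chains of laminin-332, the adhesive laminin under basal epithelial cells, and its hemidesmosome partner collagen XVII were lower in mut cells. Among 21 basement membrane genes tested, 7 were lower and 1 higher, so that 38.1% were called beside 39.2% of all genes (median -0.12). LAMA3, the alpha chain, stood at 6274, 6013, 6601 and 7097 CPM in WT and 2589, 3207, 2271 and 2645 CPM in mut (log2 difference -1.29 ± 0.18, adjusted p = 2.29e-06). The beta chain LAMB3 stood at 5455, 5323, 5490.2 and 5916 CPM in WT and 2394, 4732, 2278 and 4027 CPM in mut (log2 difference -0.80 ± 0.21, adjusted p = 0.00376), and its call was lost without clone WT 2. For both chains the genotypes did not overlap, although mut 1-2 and 65-2 came close to WT for LAMB3. COL17A1, collagen XVII, stood at 1286, 1481, 1296 and 1345 CPM in WT and 439, 479, 451 and 570.3 CPM in mut (log2 difference -1.48 ± 0.10, adjusted p = 4.11e-11). The ubiquitous laminin chains LAMB1 and LAMC1 had log2 differences of -0.004 and -0.06 (adjusted p = 0.971 and 0.490). COL18A1, a basement membrane collagen, was the member that was higher (11.2 and 18.5 CPM, adjusted p = 0.00289), a call lost without clone mut 65.

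Integrins, the matrix receptors, were more often lower than higher in mut cells. Of 14 subunits tested, 8 were lower and 4 higher, beside 13.2% lower and 26.0% higher over all genes. With TMM factors 8 were lower and 3 higher. ITGB1, the common beta subunit, had means of 2159 and 1504 CPM in WT and mut (log2 difference -0.52 ± 0.09, adjusted p = 5.48e-05). Its partners ITGA5 (525 and 317 CPM, adjusted p = 2.09e-05), ITGA2 (589 and 361 CPM, adjusted p = 5.50e-04) and ITGA6 (1330.0 and 890.4 CPM, adjusted p = 6.92e-05) were lower too. ITGAV (566 and 395 CPM, adjusted p = 6.82e-04) and ITGB6 (983 and 619 CPM, adjusted p = 0.0148), which together form an activator of latent TGFβ, were also lower. The calls of ITGA2, ITGAV and ITGB6 were lost without clone mut 65, and that of ITGB6 also without clone WT 2. ITGB4, the hemidesmosome integrin, was higher, with 2658, 2384, 3061 and 2986 CPM in WT and 3245, 3728, 3761 and 4579 CPM in mut (log2 difference 0.46 ± 0.13, adjusted p = 0.00705), and its call was lost without clone WT 27 and with counts summed per clone. ITGB8 was higher as well (42.4 and 64.4 CPM, adjusted p = 2.02e-04).

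Matricellular and fibrillar genes had called members in both directions. Among 24 glycoproteins tested, 9 were lower and 5 higher, and among 12 interstitial collagens 4 were lower and 6 higher. Over all genes 13.2% were lower and 26.0% higher. TGFBI, a secreted adhesion protein and classical TGFβ target, stood at 13394, 12269, 14386 and 15840.2 CPM in WT and 4592, 5327, 3293 and 3662 CPM in mut (log2 difference -1.75 ± 0.25, adjusted p = 2.54e-06). TNC, tenascin C, stood at 179.9, 96.8, 139 and 117 CPM in WT and 37.4, 47.7, 25.02 and 37.95 CPM in mut (log2 difference -1.83 ± 0.26, adjusted p = 2.96e-06). FSTL1, a secreted glycoprotein, had means of 212 and 86.7 CPM (adjusted p = 4.21e-05). FN1, fibronectin, stood at 8840.2, 12648, 12169 and 17963 CPM in WT and 7766, 9096, 5529 and 3988 CPM in mut and did not pass the test (log2 difference -0.997 ± 0.49, adjusted p = 0.110), and its libraries overlapped. The collagen gene COL1A1 was lower, with 52.6, 27.1, 46.3 and 43.5 CPM in WT and 17.4, 16.8, 16.7 and 18.8 CPM in mut (log2 difference -1.24 ± 0.21, adjusted p = 2.78e-05), and FBN1, fibrillin, had means of 41.3 and 15.5 CPM (adjusted p = 1.23e-04). Other secreted members were higher. FBLN1, fibulin 1, was higher, with 384, 367, 389 and 372 CPM in WT and 745, 744, 749 and 931 CPM in mut (log2 difference 1.06 ± 0.11, adjusted p = 1.44e-08). FBLN5, an elastic fibre assembly protein, was higher, with 23.95, 113, 40.4 and 67.1 CPM in WT and 206, 208, 245 and 295 CPM in mut (log2 difference 2.17 ± 0.42, adjusted p = 1.50e-04). The WT libraries of FBLN5 spread widely, yet the highest of them was below the lowest mut library. COL8A1, a short-chain collagen, had means of 192 and 441 CPM (adjusted p = 3.61e-05), and COL16A1 of 40.1 and 78.6 CPM (adjusted p = 1.24e-04). The decorin gene DCN, also in the fibroblast marker list, had means of 10.2 and 29.4 CPM (adjusted p = 4.53e-05), and over the fibroblast list 1 tested marker was higher and 3 were lower of 6, with summed levels of 458 to 699 CPM in WT and 354 to 498 CPM in mut. All libraries are of MCF10A clones, and a part of other cells in these genes was not tested. Among 15 matrix crosslinking and hydroxylation enzymes tested, 5 were lower and 1 was higher, beside 13.2% lower and 26.0% higher over all genes: P4HA2, a collagen prolyl hydroxylase, had means of 158 and 119 CPM (adjusted p = 1.37e-04) and P3H2, another, of 41.3 and 63.4 CPM (adjusted p = 9.60e-04).

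Inflammatory cytokines were more often lower than higher in mut cells. Of 24 tested, 13 were lower and 2 higher, with a median log2 difference of -1.11. Over all genes 13.2% were lower and 26.0% higher. IL1B, interleukin 1 beta, stood at 118, 73.6, 106 and 118 CPM in WT and 9.86, 32.3, 11.1 and 18.98 CPM in mut (log2 difference -2.65 ± 0.26, adjusted p = 1.19e-08). CSF3, the granulocyte colony-stimulating factor, stood at 73.6, 71.6, 74.3 and 92.9 CPM in WT and 14.5, 18.9, 11.8 and 14.2 CPM in mut (log2 difference -2.39 ± 0.19, adjusted p = 3.00e-10). IL32 stood at 89.3, 40.2, 38.2 and 25.4 CPM in WT and 6.64, 5.79, 2.14 and 5.36 CPM in mut (log2 difference -3.19 ± 0.44, adjusted p = 1.85e-06). In each the highest mut library was below the lowest WT library, which for IL32 the rule of the lowest genes requires. The neutrophil chemokine CXCL8 stood at 41.7, 30.7, 34.4 and 29.05 CPM in WT and 5.33, 15.8, 6.46 and 10.5 CPM in mut (log2 difference -1.93 ± 0.25, adjusted p = 9.00e-07), and CXCL1 had means of 40.4 and 10.1 CPM (adjusted p = 1.06e-07). IL11, a cytokine of the IL-6 family, had means of 18.2 and 7.46 CPM (adjusted p = 7.10e-04), and IL1A of 146 and 79.5 CPM (adjusted p = 0.00644), a call lost without either WT clone. TNFAIP3, an inhibitor of NF-κB signalling, was lower (40.3 and 17.5 CPM, adjusted p = 1.55e-04), while NFKBIA, another, was higher (114 and 161 CPM, adjusted p = 2.20e-05). CSF1, the macrophage colony-stimulating factor, was higher, with 18.7, 14.3, 13.8 and 12.96 CPM in WT and 26.5, 24.3, 23.3 and 30.5 CPM in mut (log2 difference 0.81 ± 0.14, adjusted p = 3.54e-05). In solvent the list had 4 lower and 5 higher members, and CXCL8 and CXCL1 had log2 differences of 0.59 and 0.53 there (adjusted p = 0.116 and 0.109).

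Interferon and MHC class I genes were lower without exception among those called. Of 31 tested, 16 were lower and 0 higher with limma-voom (median -0.29), beside 13.2% lower and 26.0% higher over all genes. At an unadjusted p below 0.05, 16 members were lower and 1 higher. With edgeR 17 were lower and 0 higher, and with DESeq2 18 and 0. IRF9 and STAT2, subunits of the transcription complex that interferon activates, had means of 18.05 and 10.1 CPM (adjusted p = 5.40e-05) and 52.4 and 36.1 CPM (adjusted p = 9.81e-05). HLA-B, an MHC class I heavy chain, stood at 195, 121, 139 and 104 CPM in WT and 70.4, 64.6, 77.8 and 90.6 CPM in mut (log2 difference -0.85 ± 0.14, adjusted p = 2.22e-05). The genotypes were apart for HLA-B, and reads of HLA genes can be shared among near-identical members. IFIT3 and ISG15, both induced by interferon, had means of 12.3 and 6.404 CPM (adjusted p = 2.52e-04) and 7.25 and 3.41 CPM (adjusted p = 4.62e-04). In solvent 1 member was called, and it was higher.

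Promoter stretches are shown for 5 of the lowered genes, because AP-1 binds the letters TGANTCA and these windows hold them. The letters TGANTCA read the same on both strands apart from the middle base and were searched in the 250 bases before the first start that RefSeq lists for each gene (GRCh38.p14). They are in capitals, and the sequences run 5′ to 3′ on the strand of the gene, ending at the base before the start.
PLAUR, minus strand, chr19:43670170-43670419: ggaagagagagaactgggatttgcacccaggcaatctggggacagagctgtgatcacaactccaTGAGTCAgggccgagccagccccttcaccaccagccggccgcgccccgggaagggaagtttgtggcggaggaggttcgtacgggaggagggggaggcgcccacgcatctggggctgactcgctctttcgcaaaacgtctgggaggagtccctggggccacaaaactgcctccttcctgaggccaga
LAMA3, plus strand, chr18:23872770-23873019: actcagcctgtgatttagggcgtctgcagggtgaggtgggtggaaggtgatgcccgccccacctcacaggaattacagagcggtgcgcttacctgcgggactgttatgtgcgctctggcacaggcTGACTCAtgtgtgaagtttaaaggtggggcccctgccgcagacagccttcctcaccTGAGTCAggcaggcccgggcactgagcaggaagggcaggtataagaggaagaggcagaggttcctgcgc
CXCL8, plus strand, chr4:73740319-73740568: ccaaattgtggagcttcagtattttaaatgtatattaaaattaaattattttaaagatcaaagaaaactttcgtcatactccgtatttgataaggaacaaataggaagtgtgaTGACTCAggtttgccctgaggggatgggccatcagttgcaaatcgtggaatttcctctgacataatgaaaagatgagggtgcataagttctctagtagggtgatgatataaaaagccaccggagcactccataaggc
IL11, minus strand, chr19:55370464-55370713: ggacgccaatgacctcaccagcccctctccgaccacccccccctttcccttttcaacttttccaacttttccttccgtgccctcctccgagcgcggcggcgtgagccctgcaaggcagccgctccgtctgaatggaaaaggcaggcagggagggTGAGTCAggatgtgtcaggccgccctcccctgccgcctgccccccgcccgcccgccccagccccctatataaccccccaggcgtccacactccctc
CLDN4, plus strand, chr7:73830746-73830995: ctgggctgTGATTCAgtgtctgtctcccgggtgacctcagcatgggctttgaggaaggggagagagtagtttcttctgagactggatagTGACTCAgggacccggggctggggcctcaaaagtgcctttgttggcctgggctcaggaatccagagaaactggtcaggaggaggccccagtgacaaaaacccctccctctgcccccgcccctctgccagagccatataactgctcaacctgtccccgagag

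The match began 186 bases before the start in PLAUR, 137 in CXCL8 and 96 in IL11, and LAMA3 held a pair, 125 and 69 bases before the start of the listed transcript. CLDN4 held a pair as well, at 242 and 161 bases. The share of windows with a match was 6.60% over the 27305 genes of the RefSeq table and 4.395% over the 11694 tested genes found in it. It was 6.08% of the genes called lower and 3.78% of those called higher. Among genes with an absolute log2 difference of at least 1, it was 13.0% of 353 lower genes and 7.20% of 403 higher genes. Of the 9 most lowered genes named above, 6 had a window in the table and 0 of these held the letters, and likewise 0 of the 6 most raised genes with a window. A match describes the letters and is not a site of binding.

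EMT transcription factors were more often lower than higher in mut cells. Of 16 tested, 8 were lower and 1 higher (median -0.25), beside 13.2% lower and 26.0% higher over all genes. SOX4 stood at 185, 140.5, 175 and 169 CPM in WT and 80.3, 74.4, 60.5 and 65.8 CPM in mut (log2 difference -1.25 ± 0.12, adjusted p = 7.69e-09), and ETS1 had means of 119 and 63.5 CPM (adjusted p = 0.00119), lost without clone mut 65. ZEB1, a repressor of epithelial genes, stood at 12.3, 19.4, 13.5 and 16.96 CPM in WT and 11.6, 12.4, 9.52 and 7.09 CPM in mut (log2 difference -0.61 ± 0.21, adjusted p = 0.0218), with overlapping libraries and a call that 5 of 22 alternatives lost. SNAI1 was low, at 5.84 and 3.61 CPM (adjusted p = 0.00816). SNAI2 had a log2 difference of -0.23 (adjusted p = 0.227), and TWIST1 of 0.09 (adjusted p = 0.554). FOXC2, a forkhead factor, was higher, with 17.7, 13.1, 14.4 and 14.7 CPM in WT and 34.5, 32.4, 34.5 and 26.1 CPM in mut (log2 difference 1.09 ± 0.15, adjusted p = 2.55e-06). The epithelial regulators had 2 lower and 1 higher of 15 tested, 20.0% called beside 39.2% of all genes, and the splicing regulators ESRP1 and RBM47 had log2 differences of 0.39 and 0.24 (adjusted p = 0.110 and 0.562).

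Junction genes did not move as one. Adherens and tight junction genes had 10 lower and 3 higher members of 27 tested, beside 13.2% lower and 26.0% higher over all genes. EPCAM, an epithelial adhesion molecule, was higher, with 18.7, 14.4, 17.8 and 9.23 CPM in WT and 37.4, 34.2, 39.6 and 46.4 CPM in mut (log2 difference 1.43 ± 0.23, adjusted p = 2.05e-05). Every mut library lay above the highest WT library. CLDN1, a tight junction claudin, was higher, with 130.5, 52.5, 96.4 and 56.4 CPM in WT and 123, 169, 135 and 182 CPM in mut (log2 difference 0.95 ± 0.29, adjusted p = 0.0103), with 1 WT library above the lowest mut library and a call lost without WT 27-2, without clone WT 2 and without either mut clone. CLDN4, whose promoter stretch holds a pair of TGANTCA matches, was lower, with 27.9, 4.49, 17.02 and 4.11 CPM in WT and 2.67, 0.367, 1.12 and 1.01 CPM in mut (log2 difference -3.22 ± 1.02, adjusted p = 0.0124), a call lost without either mut clone. CDH2, N-cadherin, had means of 134 and 92.6 CPM (adjusted p = 0.00620), lost without clone WT 2 or mut 65, and CDH1, E-cadherin, had a log2 difference of 0.17 (adjusted p = 0.618). CTNNB1 and CTNNA1, the catenins that join cadherins to actin, were lower, with log2 differences of -0.36 and -0.28 (adjusted p = 3.74e-04 and 3.18e-06). Among 12 desmosome genes 4 were higher and 2 lower, 50% called beside 39.2% of all genes. PPL, periplakin, stood at 30.3, 9.87, 23.6 and 9.94 CPM in WT and 128, 95.6, 123 and 92.7 CPM in mut (log2 difference 2.75 ± 0.42, adjusted p = 8.08e-06), whereas JUP, plakoglobin, had means of 498 and 309 CPM (adjusted p = 2.07e-04). Replication 1 exceeded replication 2 in both WT clones for PPL, and no WT library reached the mut range.

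Of 17 keratin and intermediate filament genes tested, 3 were higher and 3 lower, so that 35.3% were called beside 39.2% of all genes. KRT5, a basal keratin, was higher, with 3902, 3452, 3749 and 3510.3 CPM in WT and 5774, 4879.7, 5894 and 5988 CPM in mut (log2 difference 0.62 ± 0.10, adjusted p = 8.32e-06), and so was KRT80, with 38.98, 18.1, 15.9 and 7.63 CPM in WT and 88.9, 68.9, 81.6 and 51.3 CPM in mut (log2 difference 2.05 ± 0.38, adjusted p = 1.03e-04). KRT6B had means of 111 and 44.4 CPM (adjusted p = 0.00621), lost without either mut clone, and it is nearly identical to KRT6A and KRT6C, so that its reads are uncertain. VIM, vimentin, had a log2 difference of -0.16 (adjusted p = 0.315). In the squamous list 6 of 27 were lower and 3 higher, 33.3% called beside 39.2% of all genes, and the median log2 difference was -1.55. That median includes 18 members with no call, and some members with large falls had means near or below the floor of 3 counts in mut. In solvent 7 members were called lower and 0 higher, beside 939 and 948 of all 14865 genes. The cornified envelope precursor IVL stood at 49.7, 13.3, 24.7 and 10.3 CPM in WT and 5.94, 5.46, 4.96 and 4.81 CPM in mut (log2 difference -1.93 ± 0.68, adjusted p = 0.0238), where the WT libraries ranged widely and the call was lost in 5 of 22 alternatives. TGM1, the transglutaminase of the cornified envelope, was higher, with 20.3, 11.5, 13.6 and 10.3 CPM in WT and 33.9, 35.3, 37.95 and 46.8 CPM in mut (log2 difference 1.4999 ± 0.42, adjusted p = 0.00576), a call lost without clone WT 2 or mut 65.

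The actin contractile genes were lower by small amounts in most members. Of 29 tested, 15 were lower and 1 higher (median -0.33), beside 13.2% lower and 26.0% higher over all genes. MYH9, the heavy chain of non-muscle myosin II, stood at 1797, 1541, 1469 and 1429.6 CPM in WT and 1105, 1172, 1075 and 925 CPM in mut (log2 difference -0.54 ± 0.09, adjusted p = 1.23e-05). CNN3, a calponin, had means of 91.9 and 60.1 CPM (adjusted p = 1.03e-06), TPM4, a tropomyosin, of 716 and 471 CPM (adjusted p = 1.85e-04) and TAGLN2, a transgelin, of 1058 and 737 CPM (adjusted p = 5.84e-05). None of these overlapped between genotypes. ACTA2, the smooth muscle actin, was the member that was higher, with 12.9, 14.8, 13.8 and 13.7 CPM in WT and 15.7, 17.3, 18.9 and 23.5 CPM in mut (log2 difference 0.42 ± 0.12, adjusted p = 0.00505), and its call was lost with counts summed per clone and without clone WT 2 or mut 65. TAGLN, a common marker of TGFβ-induced contractility, had a log2 difference of 0.04 (adjusted p = 0.924). In solvent the list had 1 lower and 1 higher member.

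Of 28 migration and axon guidance genes tested, 14 were lower and 3 higher, beside 13.2% lower and 26.0% higher over all genes. SEMA7A, a membrane-anchored semaphorin, stood at 64.1, 75.8, 57.4 and 57.1 CPM in WT and 10.1, 13.98, 9.64 and 8.78 CPM in mut (log2 difference -2.58 ± 0.29, adjusted p = 8.93e-08). WNT5A, a ligand of non-canonical WNT signalling, stood at 18.7, 22.4, 22.004 and 28.5 CPM in WT and 7.66, 6.06, 6.36 and 5.19 CPM in mut (log2 difference -1.84 ± 0.18, adjusted p = 7.69e-09). L1CAM, a neural adhesion molecule, had means of 61.2 and 29.4 CPM (adjusted p = 6.60e-05), NRP1, a semaphorin co-receptor, of 126 and 68.1 CPM (adjusted p = 2.57e-04) and PTK2, the focal adhesion kinase, of 264 and 187 CPM (adjusted p = 9.22e-09). The netrin receptor UNC5B was higher, with 11.8, 11.97, 9.95 and 8.59 CPM in WT and 28.2, 60.3, 29.1 and 83.4 CPM in mut (log2 difference 2.098 ± 0.42, adjusted p = 2.06e-04). In both mut clones replication 2 held more UNC5B than replication 1. In solvent 11 members were lower and 2 higher.

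**Figure D4:**
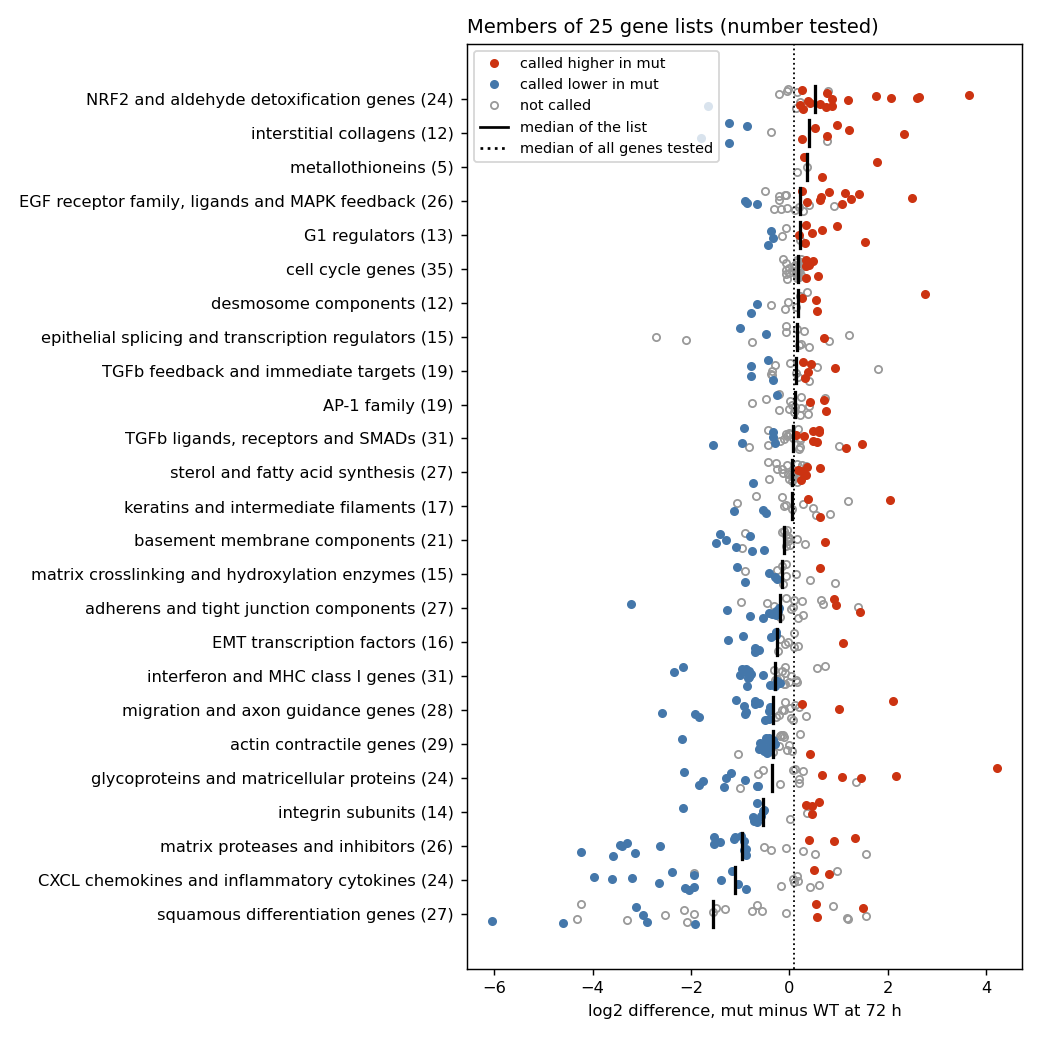
Log2 difference of mut minus WT at 72 h for the tested members of 25 gene lists, with the number tested in brackets. Filled points are called genes, open points are not called, vertical bars are list medians and the dotted line is the median of all genes, 0.10. Matrix proteases (median -0.96) and cytokines (-1.11) lie to the left, and the NRF2 list (0.53) to the right.

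Among 31 ligands, receptors, latent binding proteins and SMADs tested, 9 were higher and 6 lower, beside 26.0% higher and 13.2% lower over all genes, but with TMM factors 6 were higher and 8 lower. TGFBR1, the type I receptor, stood at 84.97, 68.5, 90.9 and 90.2 CPM in WT and 43.4, 49.96, 38.9 and 37.2 CPM in mut (log2 difference -0.97 ± 0.11, adjusted p = 8.54e-08), and TGFBR2, the type II receptor, had means of 577 and 471 CPM (adjusted p = 0.0128), a call lost in 4 of 22 alternatives. No mut library reached the lowest WT library for TGFBR1. SMAD3 and SMAD4, the transducers, had log2 differences of -0.07 and 0.02 (adjusted p = 0.710 and 0.784). FSTL3, a secreted inhibitor of activin, was lower (465 and 243 CPM, adjusted p = 2.05e-05). GDF15, a distant member of the ligand family, was higher, with 17.6, 26.4, 16.1 and 13.6 CPM in WT and 29.9, 78.6, 35.8 and 75.97 CPM in mut (log2 difference 1.48 ± 0.35, adjusted p = 0.00122), lost without clone WT 2. Among 19 feedback and immediate target genes 5 were higher and 4 lower, 47.4% called beside 39.2% of all genes, and with TMM factors 4 were higher and 6 lower. ID1, an inhibitor of basic helix-loop-helix factors, was higher, with 75.96, 48.02, 74.7 and 68.4 CPM in WT and 115, 142, 103 and 140.4 CPM in mut (log2 difference 0.92 ± 0.14, adjusted p = 5.26e-06), while its paralog ID3 was lower, with 93.7, 64.8, 95.9 and 89.2 CPM in WT and 49.6, 58.7, 42.7 and 46.6 CPM in mut (log2 difference -0.78 ± 0.13, adjusted p = 3.06e-05). SMAD7 and SMURF1, feedback inhibitors of the receptors, were lower (28.9 and 22.8 CPM, adjusted p = 0.00210, and 70.2 and 40.7 CPM, adjusted p = 2.31e-08).

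Of 26 genes of the EGF receptor family, its ligands and MAPK feedback, 10 were higher and 3 lower, beside 26.0% higher and 13.2% lower over all genes, and with TMM factors 9 were higher and 5 lower. ERRFI1, an inhibitor of the EGF receptor, stood at 83.4, 79.4, 86.9 and 73.4 CPM in WT and 183, 255, 199 and 231 CPM in mut (log2 difference 1.42 ± 0.13, adjusted p = 1.59e-09). DUSP10, a phosphatase of JNK and p38, stood at 35.9, 35.3, 47.3 and 51.3 CPM in WT and 79.2, 125, 88.8 and 109 CPM in mut (log2 difference 1.25 ± 0.14, adjusted p = 1.07e-07). EGR1, an immediate early factor, had means of 119.6 and 267 CPM (adjusted p = 6.06e-06). DUSP6, an ERK phosphatase, had means of 208 and 321 CPM (adjusted p = 1.81e-05) and ETV4, an ETS factor downstream of ERK, of 40.9 and 73.4 CPM (adjusted p = 1.97e-05). DUSP4, another ERK phosphatase, was lower, with 353, 349, 395 and 452 CPM in WT and 224, 227, 215 and 166 CPM in mut (log2 difference -0.90 ± 0.10, adjusted p = 5.60e-08), as was the ligand TGFA (91.9 and 58.1 CPM, adjusted p = 1.44e-05).

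Genes of the NRF2 response, which detoxify electrophiles and keep glutathione reduced, were higher in mut cells. Of 24 tested, 16 were higher and 1 lower, beside 26.0% higher over all genes. With TMM factors 12 were higher and 1 lower, beside 2776 higher and 2653 lower of all 14865 genes. AKR1C2, an aldo-keto reductase, stood at 51.4, 57.7, 78.9 and 106 CPM in WT and 439, 442, 377 and 493 CPM in mut (log2 difference 2.63 ± 0.22, adjusted p = 7.03e-10), and AKR1C1 and AKR1C3 had means of 29.3 and 116 CPM and 57.2 and 189 CPM (adjusted p = 1.37e-06 and 6.66e-09). These 3 are similar in sequence, AKR1C1 and AKR1C2 most of all, so that the split of reads between them is uncertain. GCLC, the rate-limiting enzyme of glutathione synthesis, stood at 64.7, 69.6, 76.5 and 76.5 CPM in WT and 122, 138, 124 and 139 CPM in mut (log2 difference 0.87 ± 0.10, adjusted p = 7.84e-08). NQO1, a quinone reductase, had means of 418 and 697 CPM (adjusted p = 1.36e-05). The cystine transporter SLC7A11 had means of 62.9 and 164 CPM (adjusted p = 0.0129), a call lost in 4 of 22 alternatives. HMOX1, heme oxygenase, was the member that was lower, with 8.77, 9.75, 12.6 and 16.2 CPM in WT and 2.69, 3.14, 2.85 and 7.71 CPM in mut (log2 difference -1.65 ± 0.29, adjusted p = 4.67e-05). NFE2L2 itself, which encodes NRF2, had a log2 difference of 0.27 (adjusted p = 0.0136). In the metallothionein list 3 of 5 were higher, and with TMM factors 2, and MT1X, which has close copies on the same chromosome, stood at 14.3, 17.3, 14.7 and 15.2 CPM in WT and 51.7, 52.6, 44.4 and 65.2 CPM in mut (log2 difference 1.79 ± 0.16, adjusted p = 1.33e-09).

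Among 35 cell cycle genes tested, 6 were higher and 0 lower with limma-voom, against 8 and 0 at an unadjusted p below 0.05. The share called was 17.1%, beside 39.2% of all genes, of which 26.0% were higher. With TMM factors, edgeR and DESeq2 alike, 2 were higher and 0 lower. CCNB2, a mitotic cyclin, stood at 34.4, 35.3, 29.999 and 26.3 CPM in WT and 46.3, 49.5, 47.4 and 44.6 CPM in mut (log2 difference 0.58 ± 0.12, adjusted p = 3.00e-04), while MKI67 had a log2 difference of -0.06 (adjusted p = 0.833). Of 13 G1 regulators 7 were higher and 3 lower, 76.9% called beside 39.2% of all genes. MYC stood at 297, 309.6, 339.6 and 291 CPM in WT and 477, 447, 510.1 and 513 CPM in mut (log2 difference 0.66 ± 0.08, adjusted p = 4.24e-07) and CDK4 had means of 89.8 and 124 CPM (adjusted p = 1.74e-06). CDKN1A, an inhibitor of cyclin-dependent kinases, was lower, with 524, 486, 506 and 517 CPM in WT and 360.1, 414, 337 and 406 CPM in mut (log2 difference -0.43 ± 0.08, adjusted p = 5.03e-05). The genotypes did not overlap for MYC, CDK4 or CDKN1A. The inhibitors CDKN1C and CDKN1B were higher, with log2 differences of 1.53 and 0.32, and kept their calls in all 22 alternatives. CCND1 and CDK6 were lower, with log2 differences of -0.34 and -0.38. Both of these calls were lost without clone mut 65, and that of CCND1 also without clone WT 27. Among 27 genes of sterol and fatty acid synthesis 6 were higher and 1 lower, 25.9% called beside 39.2% of all genes, but with TMM factors 3 were higher and 3 lower. SREBF1, their transcription factor, had means of 133 and 204 CPM (adjusted p = 7.36e-05).

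Within the AP-1 family itself, 3 of 19 members tested were higher and 1 lower, so that 21.1% were called beside 39.2% of all genes. FOS stood at 14.7, 14.02, 17.2 and 13.9 CPM in WT and 24.8, 28.1, 25.8 and 21.6 CPM in mut (log2 difference 0.75 ± 0.18, adjusted p = 0.00128). JDP2, a repressive partner of JUN, stood at 20.4, 18.1, 17.995 and 18.1 CPM in WT and 23.1, 47.5, 22.7 and 33.1 CPM in mut (log2 difference 0.70 ± 0.19, adjusted p = 0.00454), lost without clone WT 2. ATF4, a factor of the integrated stress response, had means of 481 and 654 CPM (adjusted p = 3.49e-04). MAFG was the member that was lower (-0.25 ± 0.08, adjusted p = 0.0113), a call lost without WT 2-2 and without clone WT 2 or mut 65. JUN, JUND, FOSL1 and FOSL2 had log2 differences of 0.22, 0.08, -0.01 and 0.24 (adjusted p = 0.255, 0.454, 0.968 and 0.160).

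The difference between mut and WT cells was itself other at 72 h than in solvent for 1831 genes (12.3%), tested as the 72 h difference minus the solvent difference, with 1397 positive and 434 negative values. With TMM factors 1291 genes were called, 674 positive and 617 negative. Since solvent and 72 h libraries of a clone and replication deviated together, a fit with that pairing as a random replicate block was also made, and it called 3085 genes. Without clone WT 2 the count was 353, without clone mut 65 it was 390 and without clone mut 1 it was 1212. This comparison shares the 72 h libraries with the one above.

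Of all genes tested, 53 were called in opposite directions, of the 5829 calls at 72 h and the 1887 in solvent, and 42 of them had at least 10 CPM at 72 h. SPOCK1, a secreted proteoglycan, had mean levels of 26.02 and 50.4 CPM in solvent (WT and mut, log2 difference 0.97, adjusted p = 1.42e-04) and stood at 81.3, 107, 90.8 and 99.1 CPM in WT and 29.7, 27.9, 35.3 and 39.9 CPM in mut at 72 h (log2 difference -1.52 ± 0.15, adjusted p = 9.67e-09). TGM2, a tissue transglutaminase that crosslinks matrix, had means of 29.2 and 71.6 CPM in solvent (1.33, adjusted p = 6.66e-04) and stood at 611, 632, 811 and 1011 CPM in WT and 355, 449, 287 and 371 CPM in mut at 72 h (log2 difference -1.06 ± 0.22, adjusted p = 2.88e-04). MMP2, a gelatinase, had means of 4.31 and 9.92 CPM in solvent (1.301, adjusted p = 0.0389) and stood at 47.9, 70.8, 46.5 and 67.6 CPM in WT and 31.8, 34.7, 28.1 and 29.01 CPM in mut at 72 h (log2 difference -0.89 ± 0.21, adjusted p = 0.00148). All 3 were thus higher in mut than in WT without TGFβ1 and lower with it, and the levels at 72 h of mut libraries stayed under those of all WT libraries. GASK1B, a Golgi-associated kinase-like gene, LY6K, a GPI-anchored surface protein, and FGFR2, a receptor of fibroblast growth factors, showed the opposite order. GASK1B had means of 30.8 and 21.6 CPM in solvent (adjusted p = 0.00347) and 9.396 and 17.9 CPM at 72 h (adjusted p = 6.79e-06). LY6K had 36.9 and 22.5 CPM and 21.4 and 31.4 CPM (adjusted p = 5.02e-05 and 3.39e-04), and FGFR2 had 14.7 and 9.08 CPM and 9.78 and 13.8 CPM (adjusted p = 0.00206 and 0.00810), the 72 h call of FGFR2 being lost without clone WT 27. The difference of differences was -2.49 ± 0.22 for SPOCK1, -2.39 ± 0.34 for TGM2, -2.19 ± 0.47 for MMP2, 1.47 ± 0.19 for GASK1B, 1.26 ± 0.16 for LY6K and 1.24 ± 0.22 for FGFR2. These genes were chosen for opposite calls in the same libraries, so the differences of differences are a description.

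**Figure D5:**
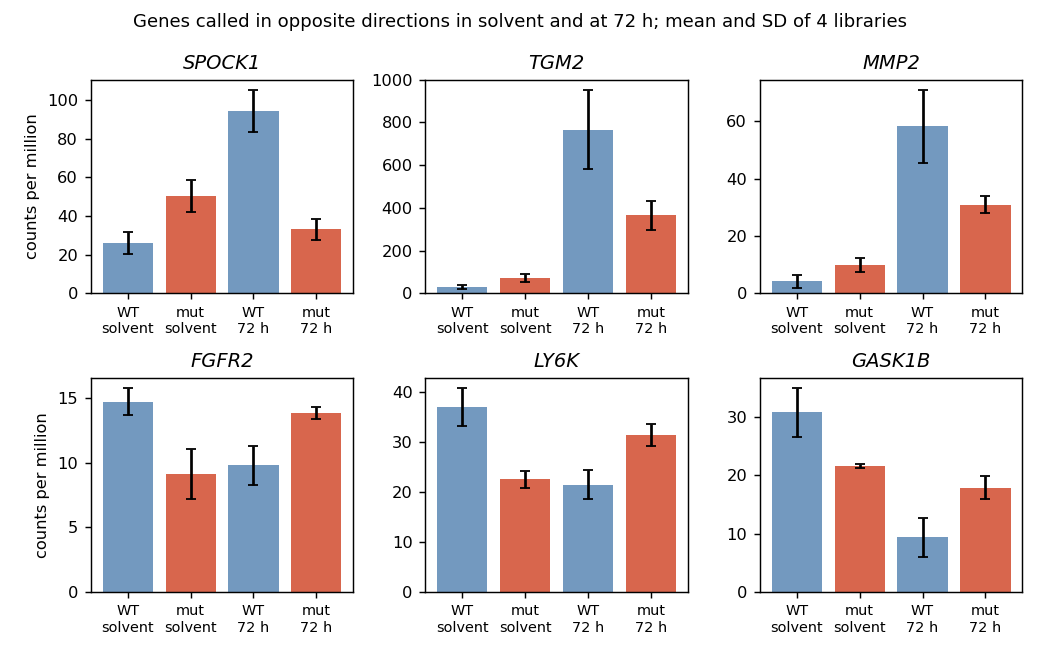
Mean CPM, with the SD of 4 libraries as error bars, of 6 genes called in opposite directions in solvent and at 72 h. Blue bars are WT and red bars mut. SPOCK1, TGM2 and MMP2 are higher in mut in solvent and lower at 72 h, and FGFR2, LY6K and GASK1B the other way round.

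Between mut clones 65 and 1 at 72 h, 43 genes were called, 31 higher and 12 lower in clone 65, while 2033 of 15206 had an unadjusted p below 0.05. Without the library mut 65-1 the count of calls was 1268, against 17 to 21 without one of the other 3 mut libraries. SATB1, a chromatin organiser, stood at 3.65, 4.59, 19.3 and 20.6 CPM in mut 1-1, 1-2, 65-1 and 65-2 (log2 difference 2.28 ± 0.48, adjusted p = 0.0455), and at 11.01, 26.9, 0.839 and 1.19 CPM in WT 27-1, 27-2, 2-1 and 2-2. The WT clones thus differed in it as well. H19, an imprinted non-coding RNA, stood at 11.7, 7.84, 50.7 and 34.3 CPM in the mut libraries (2.12 ± 0.36, adjusted p = 0.00559) and at 2.83, 4.23, 4.24 and 2.74 CPM in WT, and VWA5A at 7.57, 6.89, 20.3 and 22.1 CPM (1.55 ± 0.14, adjusted p = 2.38e-06). Lower in clone 65 were CHST2, a sulfotransferase, at 48.6, 50.3, 23.7 and 25.7 CPM (-1.0003 ± 0.12, adjusted p = 8.18e-05), EMC10 at 112, 110.3, 59.2 and 66.7 CPM (-0.82 ± 0.07, adjusted p = 1.89e-06) and the ion channel TRPM2 at 17.2, 17.5, 10.8 and 11.3 CPM (-0.65 ± 0.13, adjusted p = 0.0326). Between WT clones 27 and 2, 71 genes were called, 18 higher and 53 lower in clone 27, with 1371 at an unadjusted p below 0.05, and without one of the 4 WT libraries the count was between 21 and 47.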

How the data were processed

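RNA was prepared with a TruSeq RNA v2 kit, which keeps no strand, and sequenced in paired reads. Per the labels and the study's methods, the authors trimmed the reads with Trimmomatic and mapped and counted them with STAR against Ensembl GRCh38, and they deposited raw counts per gene in 1 table of 17788 genes with a total count of at least 4 (versions not given in the sources used here). Symbols and positions came from GENCODE 44 for 17763 genes. All 32 libraries entered 1 fit of 8 groups by genotype and treatment with limma-voom 3.58.1 in R 4.3.3 with library-size scaling, after edgeR 4.0.16 filterByExpr (minimum count 10, minimum total 15), which left 14865 genes. Calls are two-sided with a Benjamini-Hochberg adjusted p below 0.05 over all tested genes, and values after ± are standard errors. Depth at 72 h was 42131447 to 54438689 counts, and floors of 3 counts cover counting error only. Replicates of a group differed by more than sampling noise (chi-square per degree of freedom of at least 16.4).

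Clones were compared in a second fit with a group for each clone and treatment. Solvent and 72 h libraries of the same clone and replication deviated together (correlations of 0.200 to 0.584 for all 8 pairs, over 0.1), so the comparison between 72 h and solvent was refitted with that pairing as a replicate block. Alternatives were TMM factors, edgeR's quasi-likelihood test, DESeq2 1.42.0, other filters, summed clones and left-out libraries or clones. The test script was tested on simulated data.

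Genes were named by rule. These were JUNB, the 10 highest and 10 lowest called genes with at least 10 CPM whose genotypes did not overlap, up to 3 highest and 3 lowest called members of each list, up to 3 genes each way with opposite calls in solvent, and 3 each way between the mut clones. Another 47 list members, the genes around JUNB and members with no call were added after their values were seen. The comparison, its gene lists and the markers were chosen with earlier results of these data known. Some genes that met the rule are not reported here, but they stay in the counts of calls and lists.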

Additional observations from a re-analysis of the deposited data

Results flagged for a closer look

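Of the 376 groups of 4 libraries at 72 h formed by the genes named in the text or in their rule, 14 held a library farther from the other 3 than Dixon's critical ratio allows, which chance gives in about 1 of 20 groups. The library was the highest of its group for JDP2 in WT 27-1 (20.4 CPM), CSF3 in WT 2-2 (92.9 CPM), FBLN1 in mut 65-2 (931 CPM), KRT81 in mut 65-2 (8829.7 CPM), LOXL2 in mut 65-1 (30.8 CPM) and HMOX1 in mut 65-2 (7.71 CPM). It was the lowest for SCNN1B in mut 1-2 (22.01 CPM), DUSP4 in mut 65-2 (166 CPM), ITGB6 in WT 27-2 (795 CPM), COL6A1 in WT 2-1 (38.04 CPM), FGFR2 in mut 65-2 (13.1 CPM), ZEB2 in mut 65-2 (1.99 CPM), DUSP6 in mut 1-1 (261 CPM) and ETV4 in WT 2-1 (38.3 CPM).

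For 54 of these 188 genes the difference of mut minus WT at 72 h differed from that in solvent, beside 12.3% of all genes tested. The test was the limma-voom test of the difference of differences (adjusted p below 0.05). Many of the 188 genes were chosen by their 72 h difference, which enters this test, so the 2 shares are not comparable. The log2 values of the 72 h difference minus the solvent difference were negative for 30 genes: CXCL1 (-2.56), IL32 (-2.56), CXCL8 (-2.52), SPOCK1 (-2.49), TGM2 (-2.39), MMP2 (-2.19), HMOX1 (-2.07), CSF3 (-1.401), TGFBI (-1.29), IL1B (-1.21), IRF9 (-1.03), TNFAIP3 (-1.004), SOX4 (-0.93), SEMA3C (-0.92), FAP (-0.89), LAMA3 (-0.87), TGFBR1 (-0.83), CNN3 (-0.80), HLA-B (-0.75), MMP14 (-0.75), TIMP2 (-0.71), ITGAV (-0.70), COL17A1 (-0.64), SMURF1 (-0.62), STAT2 (-0.62), SMAD7 (-0.59), P4HA2 (-0.55), TAGLN2 (-0.55), MYH9 (-0.40) and PTK2 (-0.37). They were positive for 24 genes: ALDH3A1 (3.17), RIPOR2 (2.74), CAMK2B (2.55), SCNN1B (2.46), IGFBP2 (2.41), SYT12 (1.82), PPL (1.66), GASK1B (1.47), LY6K (1.26), FGFR2 (1.24), AKR1C2 (1.23), KDR (1.18), CHST2 (1.15), HMGA2 (0.88), S100A14 (0.85), AKR1C3 (0.80), MYC (0.67), ACTA2 (0.65), TIMP3 (0.61), GCLC (0.60), CDT1 (0.60), NQO1 (0.53), CDK4 (0.50) and TGIF2 (0.42). SPOCK1, TGM2, MMP2, GASK1B, LY6K and FGFR2 were chosen for opposite calls in solvent and at 72 h, which nearly fixes this test for them. These values share the 72 h libraries with the 72 h differences of the same genes.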

How the results depend on the processing

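Apart from MMP1 and MMP10, the genes whose own values the text gives lay above the floor of 3 counts in every library at 72 h, and each genotype rests on 2 clones. The count of 5829 genes in mut versus WT at 72 h stayed within 1.5 times under all 22 refits, from 3992 without clone WT 2 to 6102 with the replication number as a replicate block. It was 1034 with a minimum absolute log2 difference of 1. The replication number is a shared number here, not a pairing of mut with WT (correlations of -0.040 to 0.063 between same-numbered libraries). Of the 1831 genes for the 72 h difference minus the solvent difference, the count was 3085 with the pairing of clone and replication as a random replicate block and 3488 with it as a fixed block, which was chosen after seeing the data. That count was 626 with counts summed per clone, 353 without clone WT 2, 390 without clone mut 65, 1212 without clone mut 1 and 229 with a minimum absolute log2 difference of 1, and 1244 to 2187 without 1 of the 16 libraries. The JUNB difference was 0.76 and called without clone mut 1. Leaving out 1 library gave 17 to 1268 genes between the mut clones and 21 to 47 between the WT clones, where the lone library was assumed to vary like the other groups. Of 181 named genes with a call, 128 kept it under all alternatives run, up to 22 a gene, and 53 lost it under at least 1, of which 25 did so only without a clone. CSTA, HMGA2, ITGA10, MCM6, MT2A and ZEB2 lost it under 10 or more. The cause was not tested. No called difference changed sign. With the pairing of clone and replication as a random block, 5918 genes were called at 72 h.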
